A study of Nothobranchius furzeri with 228 samples.

Results

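Among killifish labelled FC85 to FC116, the fin transcriptome at 20 weeks of age was compared between males that later died young and males that lived long. The members were chosen by number and by the age at death in the labels: 12 fish that died at 350 days or less (short-lived) and 14 that died at 425 days or more (long-lived), 26 of the 32 fish in these numbers and of the 114 fish in the study. Another 5 fish died between the limits and enter no group, and fish FC102 was left out because its age at death is not known. The study clipped a fin of each male *Nothobranchius furzeri* (turquoise killifish) of strain MZM-0410 at 10 and at 20 weeks during normal aging, recorded when the fish died, and sequenced RNA from both clips, giving 228 libraries in all. Every fish in both groups had the same strain, sex and clip ages and no treatment, so the groups differ by their label only in the age at death.

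The turquoise killifish lives in seasonal ponds of southeastern Africa and grows old within months, and fish of one strain kept alike still die at very different ages. A fin clip is taken without killing the animal, so expression in young adulthood can be set against the lifespan the same individual went on to have. The clip is mostly skin epithelium over bony fin rays, with fibroblasts, pigment cells, nerves, vessels and blood, and in such bulk samples fewer cells of a type and less RNA per cell cannot be told apart.

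The short-lived fish died at 151 to 347 days, with a median of 302 days, and the long-lived fish at 425 to 521 days, with a median of 446.5 days. The short-lived deaths fell into 2 runs, 5 before 250 days and 7 from 294 days on. No fish numbered FC1 to FC84 lived past 405 days, so the long-lived group has no counterpart there. Fish FC85 to FC100 held 5 short-lived and 10 long-lived fish, and fish FC101 to FC116 held 7 and 4. The labels do not say whether neighbouring numbers shared a tank, hatch or sequencing run.

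**Figure D1:**
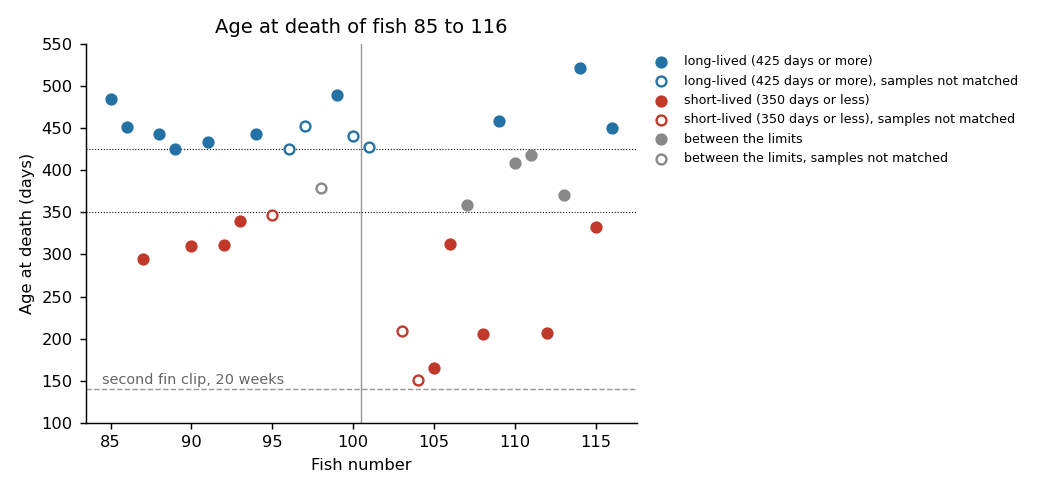
Age at death in days (vertical axis) against fish number (horizontal axis) for fish FC85 to FC116, coloured by group, with open symbols for fish whose 2 samples did not match each other. The short-lived fish lie at 151 to 347 days and the long-lived fish at 425 to 521 days, and both occur among the lower and the higher numbers.

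The 52 libraries of both ages held 15854077 to 32741128 counts each. No 2 libraries of a group were alike within sampling noise. For 9 of the 32 fish, those numbered FC95 to FC98 and FC100 to FC104, the 2 samples did not resemble each other: over 300 genes with lasting differences between individuals, chosen in fish FC1 to FC84, their correlation was between -0.331 and 0.218. Each of these samples instead correlated best, at 0.853 to 0.934, with a clip of a different fish among the 9, while the other 23 fish matched themselves at 0.819 or more. Samples of the short-lived fish FC103 matched those of the short-lived fish FC95, and samples of the short-lived fish FC104 matched those of the long-lived fish FC96. An exchange of labels between FC103 and FC95 would leave both in the short-lived group, and one between FC104 and FC96 would not. Samples of the long-lived fish FC97 and FC101 matched each other, so an exchange would leave both in their group. The clips of the long-lived fish FC100 matched clips of FC102, without a known age at death, and of FC98, which died between the limits. An exchange there could put a sample of a fish of no group among the long-lived fish. The 9 unmatched fish hold 3 short-lived and 4 long-lived fish, and which of the 2 clips carries another fish's label cannot be told, so results are also given without them.

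At 20 weeks 3 short-lived fish, FC103, FC104 and FC105, were extreme for some genes, though the libraries of FC103 and FC105 did not stand apart as a whole. On the first principal component at that age FC103 and FC105 lay at 19.6 and 23, below the long-lived fish FC100 at 28.6. Fish FC104 was highest, at 52.9, followed by the short-lived fish FC95 at 45.5. It was also highest on the third component (7.72% of the variance), at 30.7, where the long-lived fish FC86 was lowest, at -35.6. Fish FC103, FC104 and FC105 died at 209, 151 and 165 days and had the highest levels of C3, DDIT4 and KLF9 among the 26 fish. Fish FC108 and FC112 also died early, at 206 and 207 days, and FC108 had the lowest DDIT4 level of the short-lived fish. Fish FC103 and FC104 are among the unmatched fish and fish FC105 is not. At 10 weeks the libraries stood apart by fish number. The first principal component at that age (26.5% of the variance) lay at -34 to -17 in the 19 fish FC85 to FC104 with a known age and at 15.6 to 49.7 in the 12 fish FC105 to FC116, with no overlap, while at 20 weeks the ranges overlapped, at -26.6 to 52.9 and -44.4 to 23. The lower numbers held 7 short-lived and 11 long-lived fish and the higher numbers 5 and 3, and the labels give no reason for the split, so the comparisons were also fitted with a term for these ranges.

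No gene passed the test between short-lived and long-lived fish at 20 weeks. Of 17547 genes tested with edgeR's quasi-likelihood test, 0 (0%) had a Benjamini-Hochberg adjusted p under 0.05, and the lowest adjusted p was 0.813. An unadjusted p under 0.05 was reached by 780 genes (4.45%), of which 337 were higher in the short-lived fish (1.92% of genes tested) and 443 lower (2.52%). DESeq2 also called 0 genes, with 852 (4.86%) at an unadjusted p under 0.05, and limma-voom called 0, with 659. With a term for fish FC85 to FC104 and FC105 to FC116 edgeR again called 0 at a lowest adjusted p of 0.494. In that fit an unadjusted p under 0.05 was reached by 1675 genes (9.55%), 792 higher (4.51%) and 883 lower (5.03%), and all 24 genes named next kept their sign. No gene had levels that did not overlap between the groups.

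The intervals bound the differences for most genes. The 95% interval of the log2 fold change lay within -1 and 1 for 16526 genes (94.2%), so that a difference of 2-fold or more was outside the interval for those genes. The median half-width of the interval was 0.24 and the median size of the fold change 0.08 on the log2 scale. For the remaining genes the interval reached beyond 2-fold.

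**Figure D2:**
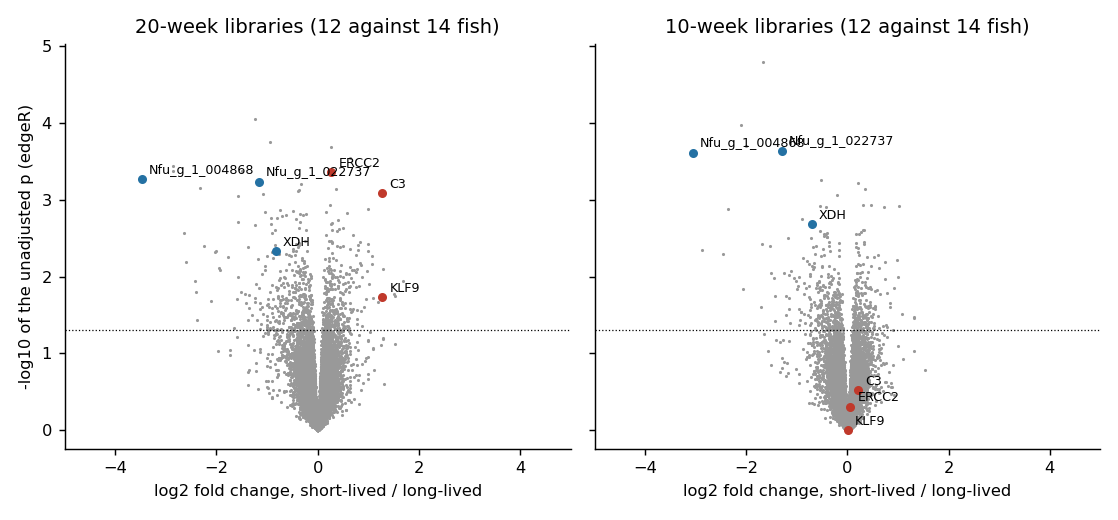
Log2 fold change of short-lived over long-lived fish (horizontal axis) against -log10 of the unadjusted edgeR p (vertical axis) for each gene tested, at 20 and at 10 weeks. The dotted line marks an unadjusted p of 0.05, passed by 780 genes at 20 weeks and 560 at 10 weeks, and none passed the adjusted threshold at either age.

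The named genes with the lowest p are described next as values, since none passed the test. On the higher side stood the complement component C3 (Nfu_g_1_015843), the central protein of the complement cascade. Its level at 20 weeks was 9.1 to 92.8 CPM (counts scaled to library size; median 17.7) in the 12 short-lived fish and 4.49 to 24.4 CPM (median 11) in the 14 long-lived fish. Fish FC104, FC103 and FC105 were highest, with 92.8, 62.4 and 54.7 CPM, followed by fish FC112 with 29.9 CPM, and these 4 lay above every long-lived fish while the other short-lived fish lay within their range. The log2 fold change was 1.28 ± 0.34 (SE), with an unadjusted p of 0.000829 and an adjusted p of 0.813 in edgeR. Without the unmatched fish it was 0.87, and without fish FC103, FC104 and FC105 it was 0.45, with an unadjusted edgeR p of 0.0926. Within fish FC85 to FC100 it was 0.36 and within fish FC101 to FC116 it was 1.65. At 10 weeks fish FC105, whose samples matched, had 13 CPM of C3. The libraries labelled FC103 and FC104 had 16.3 and 11.4 CPM at that age, but these did not match their 20-week counterparts. The files hold 3 identifiers named C3, and reads of similar copies may have been split between them. The other copies had log2 fold changes of -0.50 and -0.33.

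DDIT4 (also REDD1) restrains the growth kinase mTORC1 under stress. The tested identifier was Nfu_g_1_023065, and a further one with the name, Nfu_g_1_016693, had 0 counts at 20 weeks. The DDIT4 level was 14.1 to 90.5 CPM (median 23.4) in short-lived and 10.3 to 30.1 CPM (median 17.2) in long-lived fish. Fish FC104, FC105 and FC103 held the top of the range with 90.5, 55.9 and 41.4 CPM, and the other short-lived fish overlapped the long-lived ones. The log2 fold change was 0.80 ± 0.25 (SE), with an adjusted p of 0.964 in edgeR, and 0.22 without fish FC103, FC104 and FC105. MKNK2, a kinase that phosphorylates the translation factor eIF4E, was highest in the same fish and in fish FC95. It ranged from 43.3 to 331 CPM (median 65.3) in short-lived and from 34.7 to 89.9 CPM (median 56.6) in long-lived fish, a log2 fold change of 0.84 ± 0.26 (SE) that was 0.21 without those 3 fish. Fish FC104 had 331 CPM, fish FC105 had 185 CPM, fish FC95 had 121 CPM and fish FC103 had 118 CPM.

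ERCC2 and NR1D2 had similar fold changes with and without fish FC103, FC104 and FC105. ERCC2, a helicase of the repair and transcription factor TFIIH, had 50.9 to 82.2 CPM (median 71.3) in short-lived and 47.8 to 70.6 CPM (median 56.8) in long-lived fish. Its groups overlapped, but the short-lived median lay above the highest long-lived fish. Of the 12 short-lived fish, 11 lay above the long-lived median, and the log2 fold change was 0.27 ± 0.07 (SE; adjusted p 0.813, edgeR). It was 0.27 without the 3 fish and 0.26 without the unmatched fish. NR1D2 (Nfu_g_1_020882, REV-ERB beta), a repressor of the circadian clock, had 25.9 to 56.8 CPM (median 42.4) in short-lived and 26.5 to 41.7 CPM (median 34) in long-lived fish. Here too the ranges overlapped and the short-lived median lay above the highest long-lived fish. The difference was 0.36 ± 0.09 (SE) on the log2 scale (adjusted p 0.813, edgeR), and 0.30 without the 3 fish. This identifier was far lower at 10 weeks in both groups, with medians of 2.46 and 3.12 CPM. Of 4 identifiers named NR1D2, the other 3 had log2 fold changes of 0.39, 0.23 and -0.05 at 20 weeks.

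ABI3BP, an extracellular matrix protein, had a log2 fold change of 0.29 at 20 weeks, and TENM3, a teneurin that guides neuronal connections, had 0.23. TRIP10, a membrane-curving adaptor of CDC42, had 0.23 (2 identifiers share the name), and PLEKHA7, a junction protein of epithelia, had 0.28. POU2F1, the octamer-binding transcription factor OCT1, had 0.17, FAM208B had 0.26 and ANKRD29 had 0.50. These fold changes each had an adjusted p of 0.913 or more in edgeR, and 10 or 11 of the 12 short-lived fish lay above the long-lived median for each gene. The gene of any kind with the lowest p at 5 CPM or more on this side was Nfu_g_1_020835, which no source used here names, with a log2 fold change of 0.27 ± 0.06 (SE). All 12 short-lived fish lay above the long-lived median for it.

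On the lower side, XDH (xanthine dehydrogenase), the enzyme that makes urate and a pigment-cell gene in fish, had 13.7 to 81.9 CPM (median 45.7) in short-lived and 38.9 to 123 CPM (median 66.3) in long-lived fish. Fish FC105, FC104, FC103 and FC112 were lowest, with 13.7, 14.6, 14.9 and 17.3 CPM, and the other short-lived fish overlapped the long-lived range. The log2 fold change was -0.83 ± 0.27 (SE; adjusted p 0.964, edgeR) and -0.54 without fish FC103, FC104 and FC105. XDH was also among the 4 named genes with the lowest p on the lower side at 10 weeks, with a log2 fold change of -0.71 ± 0.21 (SE). XDH is itself among the 4 pigment-cell markers tested. The other 3 summed to 154 to 268 CPM (median 188) in short-lived and 154 to 339 CPM (median 228) in long-lived fish, and their part in the XDH result was not tested.

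CKAP2L, a protein of the mitotic spindle, had 1.88 to 6.42 CPM (median 3.89) in short-lived and 3.46 to 13.8 CPM (median 5.34) in long-lived fish, with overlapping groups and a log2 fold change of -0.84 ± 0.27 (SE). RPL22L1, a paralog of ribosomal protein RPL22, had 74.9 to 147 CPM (median 125) against 117 to 220 CPM (median 143), and 2 of 12 short-lived fish lay above the long-lived median. Its log2 fold change was -0.37 ± 0.11 (SE), and both genes had adjusted p above 0.9 in edgeR. ZNFX1 and MOV10, helicases that act in RNA defence, had log2 fold changes of -0.65 and -0.33. ATG7, which activates ubiquitin-like proteins in autophagosome formation, had -0.24, and ATP6V0D1, a subunit of the vacuolar proton pump, had -0.21.

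Also on the lower side were the zinc finger protein ZNF503 (-0.44), C12orf66 (-0.35), the LIM protein CRIP2 (-0.37) and AUP1, which acts in lipid droplets and protein degradation (-0.14). For 9 of the 12 named genes on this side, 0 or 1 of the 12 short-lived fish lay above the long-lived median, and for AUP1 it was 0. All 24 named genes kept their sign within fish FC85 to FC100 and within fish FC101 to FC116. They also kept it without fish FC103, FC104 and FC105, when 21 had an unadjusted edgeR p under 0.05. Over all genes that share was 3.29%, but it is no fair measure for these 24. They were picked by their p in the same fish, so that a kept sign or a kept low p is a description.

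The stress-related genes were followed as a list of glucocorticoid, FOXO and p53 targets, transcripts that hormone, starvation or damage signals induce. Of 26 tested identifiers, 22 were higher in short-lived fish, with a median log2 fold change of 0.30 against -0.01 for all genes. Over all 17547 genes 7993 were higher and 9554 lower, the counts to set beside each list at 20 weeks below. Of the 26 identifiers, 6 higher and 1 lower had an unadjusted edgeR p under 0.05, beside 1.92% and 2.52% of all genes, none of them after adjustment. With the term for fish number 11 higher and 1 lower had one, beside 4.51% and 5.03%. Within fish FC85 to FC104 it was 9 and 1 (3.45% and 2.13% of all genes). Within fish FC105 to FC116 it was 1 and 0 (3.23% and 2.18%). FKBP5, a chaperone of the glucocorticoid receptor and its own target gene, ranged from 5 to 128 CPM (median 22.2) in short-lived and from 8.72 to 52.3 CPM (median 16.5) in long-lived fish. Fish FC104 and FC105 had 128 and 94.9 CPM and lay above every other fish, and fish FC103 had 38.9 CPM. Its log2 fold change was 0.92 ± 0.39 (SE), and -0.10 without fish FC103, FC104 and FC105.

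KLF9, a transcription factor induced by glucocorticoids, had 36.7, 17 and 14 CPM in fish FC104, FC105 and FC103 and 1.1 to 10.4 CPM in the long-lived fish. Its log2 fold change of 1.28 ± 0.51 (SE) was -0.38 without those fish. SESN1, a p53 and FOXO target that restrains mTORC1, ranged from 99.7 to 482 CPM (median 239) against 84.5 to 222 CPM (median 165), with a log2 fold change of 0.56 ± 0.20 (SE) that was 0.28 without them. ZBTB16, a hormone-induced transcription factor, had 0.44 and 0.41 in 2 of its 3 identifiers, and SGK1, a kinase induced by glucocorticoids, had -0.18.

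The mean deviation of the list from the 26 fish was highest in fish FC104, followed by fish FC105 and fish FC103, among the 32 fish. Marker lists stood at their extremes in the same libraries. Of the 32 fish, FC104 and FC105 ranked 32 and 31 from the top for extracellular matrix, 31 and 30 for nerve and 32 and 30 for pigment-cell genes, FC104 ranked 1 for endothelium and for complement and plasma genes, and FC103 ranked 1 for muscle and for bone. By contrast, FC103 ranked 19, 26 and 23 for matrix, nerve and pigment-cell genes, and FC105 ranked 11 for endothelium and 13 for muscle. FC104 ranked 17 for bone, a list of 2 genes. For keratinocyte and epithelium markers FC103, FC104 and FC105 ranked 23, 28 and 9. The part of these cells in the stress-list result was not tested. Without the 3 fish the list median was -0.02, and without the 9 unmatched fish it was 0.08 with 21 of 26 identifiers still higher. At an unadjusted edgeR p under 0.05 in either direction stood 1 identifier without the 3 fish (3.29% of all genes). Without the unmatched fish it was 2 (4.29%). The list had a median of -0.07 at 10 weeks, with 10 of 26 identifiers higher. This moved with the split by fish number. With the term the 10-week median was 0.02 with 15 higher. Within fish FC85 to FC104 it was 0.02 and within fish FC105 to FC116 it was 0.09.

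Genes of cell division and DNA replication were lower in short-lived fish at 20 weeks in 54 of 56 cases, with a median log2 fold change of -0.18, and 3 of them (SMC4, HMGB2 and UHRF1) had an unadjusted p under 0.05, a share near the 2.52% of all genes that were lower. SMC4, a condensin subunit, had -0.18, HMGB2, a chromatin protein, had -0.10, and UHRF1, which maintains DNA methylation, had -0.41. With the term for fish number the median was -0.26 and 14 were lower at an unadjusted p under 0.05, beside 5.03% of all genes. At 10 weeks 54 of 56 had a fold change above 0 and the median was 0.12, none at an unadjusted p under 0.05, but this moved with the split by fish number. With the term the 10-week median was 0.02 with 34 of 56 above 0. Within fish FC85 to FC104 it was 0.07 with 40 above 0, and within fish FC105 to FC116 it was -0.09 with 46 below 0. The mean deviation of the list per fish, on the log2 scale, overlapped at 20 weeks, at -0.69 to 0.39 in short-lived and -0.55 to 0.48 in long-lived fish. Genes of one list share cells and libraries, so the 56 do not count as independent.

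Interferon and antigen presentation genes were lower in 19 of 20 cases, with a median of -0.22. Those with an unadjusted p under 0.05 were ZNFX1 (-0.65), IFIH1 (-0.26), DHX58 (-0.61) and RSAD2 (-0.91), sensors and effectors of the antiviral response, 4 of 20 beside 2.52% of all genes. Without the unmatched fish 1 of the 20 had such a p (4.29% of all genes), and without fish FC103, FC104 and FC105 it was 9 (3.29%). RSAD2 (viperin) ranged from 1.51 to 9.7 CPM (median 3.42) in short-lived and from 2.42 to 27.3 CPM (median 5.31) in long-lived fish, so that the groups overlapped and single long-lived fish were high. The median was -0.16 without the unmatched fish and -0.26 without fish FC103, FC104 and FC105. With the term for fish number it was -0.21, with 2 of 20 lower at an unadjusted edgeR p under 0.05, beside 5.03% of all genes. Within fish FC85 to FC104 it was -0.22 with 19 lower. Within fish FC105 to FC116 it was -0.07 with 11 lower and 9 higher, and 0 had such a p in either range.

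Sterol and fatty acid synthesis genes were lower in 11 of 13 cases, with a median of -0.16 and 4 at an unadjusted p under 0.05 (2.52% of all genes). Without the unmatched fish the median was -0.06, with 5 of 13 higher and 0 at such a p. With the term for fish number the median was -0.18 with 12 lower, 6 of them at such a p, beside 5.03% of all genes. Within fish FC85 to FC104 all 13 were lower, 4 at such a p (2.13% of all genes). Within fish FC105 to FC116 10 were lower and 3 higher, and 0 had such a p (2.18% of all genes lower). SQLE, which epoxidises squalene, had -1.05, LSS, which closes the sterol rings, had -0.63, and SREBF2, the transcription factor of the pathway, had -0.16. LSS had 1.11 to 2.22 CPM (median 1.57) in short-lived and 1.18 to 4.33 CPM (median 2.33) in long-lived fish, and no short-lived fish lay above the long-lived median. Its unadjusted edgeR p was 0.00157 with an adjusted p of 0.913. Without the unmatched fish SQLE had -0.34 and LSS -0.38.

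Proteasome genes were lower in 30 of 32 cases, with a median of -0.09 and 0 at an unadjusted p under 0.05. With the term for fish number the median was -0.156 with 31 lower, 2 of them at such a p, beside 5.03% of all genes. Within fish FC85 to FC104 it was -0.102 with 30 lower, and within fish FC105 to FC116 it was -0.2 with 32 lower. Both without the unmatched fish and without fish FC103, FC104 and FC105 the median was -0.04. At 10 weeks 30 of 32 were higher with a median of 0.08, beside 9354 of 17547 genes higher. With the term 12 were higher at that age with a median of -0.02, beside 8699 of all genes. The study itself reports on the proteasome in these fish, so this list is no independent evidence of a direction. The cytosolic ribosome list had a median of 0.00 over 58 genes, with 30 higher and 28 lower, but without the unmatched fish the median was -0.06 with 0 of 58 higher, and -0.08 when fish FC105 was left out too. Splicing genes were lower in 47 of 55 cases (median -0.05), and chaperones in 32 of 41 (median -0.08). Without the unmatched fish 19 of the splicing genes (median -0.02) and 12 of the chaperones (median -0.04) were higher, and without fish FC103, FC104 and FC105 the medians were -0.01 and -0.03. At an unadjusted p under 0.05 these held HNRNPK (-0.14) and SMNDC1 (-0.12), both splicing factors, and the small heat shock protein HSPB7 (-0.64), which had 0.02 within fish FC85 to FC100. That is 2 of 55 and 1 of 41, near the 2.52% of all genes that were lower. With the term for fish number 7 splicing and 4 chaperone genes were lower at such a p, beside 5.03% of all genes. In that fit 2 splicing and 0 chaperone genes were higher at such a p, beside 4.51%. The autophagy receptor SQSTM1 had -0.19, and 2 of 23 lysosome and autophagy genes were lower at such a p, beside 2.52% of all genes. The lists of oxidative phosphorylation, mitochondrial ribosome, lysosome and autophagy, circadian clock, inflammation, nerve and endothelium had medians between -0.07 and 0.06. These lay between -0.11 and 0.05 without the unmatched fish and between -0.08 and 0.10 without fish FC103, FC104 and FC105.

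Complement and plasma genes were split 9 higher to 8 lower, and C5 (0.38), the component that starts the membrane attack complex, joined C3 at an unadjusted p under 0.05. They were 2 of 17, beside 1.92% of all genes that were higher at such a p. Extracellular matrix genes had a median of -0.03 over 39 (0.05 without fish FC103, FC104 and FC105), with fibronectin (FN1, Nfu_g_1_003374) as the one at an unadjusted p under 0.05. A share of 1 in 39 is near the 1.92% of all genes that were higher. FN1 ranged from 157 to 949 CPM (median 335) in short-lived and from 145 to 396 CPM (median 262) in long-lived fish, a log2 fold change of 0.50 that was 0.20 without fish FC103, FC104 and FC105.

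**Figure D3:**
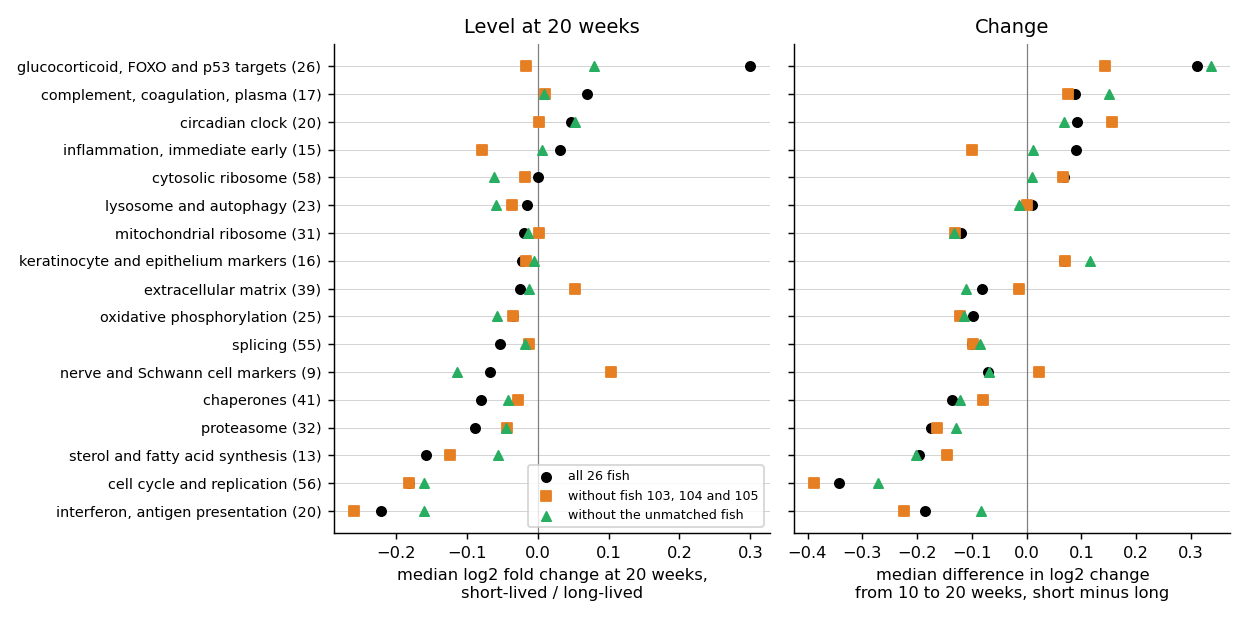
Median log2 fold change at 20 weeks and median difference in the log2 change from 10 to 20 weeks (horizontal axes) for each gene list with 9 or more tested genes (number in brackets), for all 26 fish and without fish FC103, FC104 and FC105 or the unmatched fish. The stress-related list moves from 0.30 to -0.02 without the 3 fish, and the cell cycle list stays at -0.18.

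The lists also cover the cells a fin clip can hold. Keratinocyte and epithelium markers dominated, at 119000 to 201000 CPM in short-lived and 102000 to 198000 CPM in long-lived fish at 20 weeks. Leukocyte markers (2 genes tested) had medians of 69.9 and 69 CPM and erythrocyte markers of 131 and 118 CPM, and muscle markers lay at 16.5 to 34.2 CPM and 16.2 to 24.1 CPM. The ranges of the groups overlapped for each of these marker sums, and their part in the results was not tested. Single markers at an unadjusted p under 0.05 were LGALS9, a galectin of leukocytes (-0.69), MYOM2, a sarcomere protein (0.42), and PHOSPHO1, a phosphatase of bone mineralisation (0.57). LGALS9 was 1 of 2 leukocyte genes, both lower, beside 2.52% of all genes lower at such a p. MYOM2 was 1 of 6 muscle genes, 5 of them higher, and PHOSPHO1 was 1 of 2 bone genes, beside 1.92% higher. The other bone gene, ALPL, was lower. A haemoglobin identifier (Nfu_g_1_007603, HBG1) had 1.69 at 0 to 2.37 CPM in short-lived fish, but the abundant one of the 7 with this name (Nfu_g_1_007641) had -0.01.

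At 10 weeks, before any of these fish had died, 0 of 17547 genes passed (0%), with 560 (3.19%) at an unadjusted p under 0.05, 232 higher (1.32%) and 328 lower (1.87%) in the fish that later died young. DESeq2 called 5 genes (0.0285%) at this age, with 605 (3.45%) at an unadjusted p under 0.05, and limma-voom called 0, with 505. The 5 genes were Nfu_g_1_002616, Nfu_g_1_004868, Nfu_g_1_017034, Nfu_g_1_022737 and Nfu_g_1_025106, all lower in short-lived fish. The lowest adjusted p in edgeR was 0.289. The named genes with the lowest p were ZNF346, DYNLRB1, LRIG3 and ARSJ on the higher side, with log2 fold changes of 0.30, 0.16, 0.20 and 0.23, and EPHB1, XDH, IL16 and SOX5 on the lower side, with -0.90, -0.71, -0.55 and -0.47. EPHB1, an ephrin receptor, kept a similar value at 20 weeks (-0.90), though at under 1 CPM. Of the genes with an unadjusted p under 0.05, 94 were shared by both ages. With the same sign at both there were 91, or 11.7% of the 20-week list and 16.2% of the 10-week list. By their labels both ages come from the same fish, although the samples of 3 short-lived and 4 long-lived fish did not match.

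A few unnamed genes were high in some long-lived fish at both ages. Nfu_g_1_004868 lay above 5 CPM at 20 weeks in 5 of 14 long-lived fish (FC86, FC88, FC94, FC99 and FC114, at 10.3 to 19.3 CPM) and in 0 of 12 short-lived fish, whose highest value was 2.38 CPM. At 10 weeks it lay above 5 CPM in the same 5 fish and in fish FC100. The level in fish FC100 was 8.81 CPM at the first clip but 0.106 CPM at the second. Fish FC102, which has no known age at death, was the reverse, with 0.214 CPM and then 14.8 CPM, and the first clip of fish FC100 was among the samples that matched the second clip of fish FC102. No fish of FC1 to FC50 or of FC51 to FC84 lay above 5 CPM at either age (0 of 48 and 0 of 34). The log2 fold change was -3.48 ± 0.89 (SE; adjusted p 0.813, edgeR) at 20 weeks and -3.06 ± 0.73 (SE; adjusted p 0.863, edgeR) at 10 weeks. Nfu_g_1_002616 was high in the same fish, with 7.25 to 11.7 CPM in the 10-week clips and 3.1 to 4.04 CPM in the 20-week clips of the 5 long-lived fish. Both genes were singled out after their values were seen, and no source used here names them.

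Nfu_g_1_022737, one of the genes of any kind with the lowest p on the lower side, was more graded. It had 4.25 to 34.4 CPM (median 13.7) in short-lived and 15.2 to 94.3 CPM (median 27.3) in long-lived fish at 20 weeks, and 11 of 12 short-lived fish lay at or below the long-lived median. The log2 fold change was -1.16 ± 0.30 (SE) at 20 weeks and -1.30 ± 0.31 (SE) at 10 weeks, with adjusted p of 0.813 and 0.863 in edgeR. The second such gene, Nfu_g_1_018319, had -0.32 ± 0.08 (SE), with no short-lived fish above the long-lived median.

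**Figure D4:**
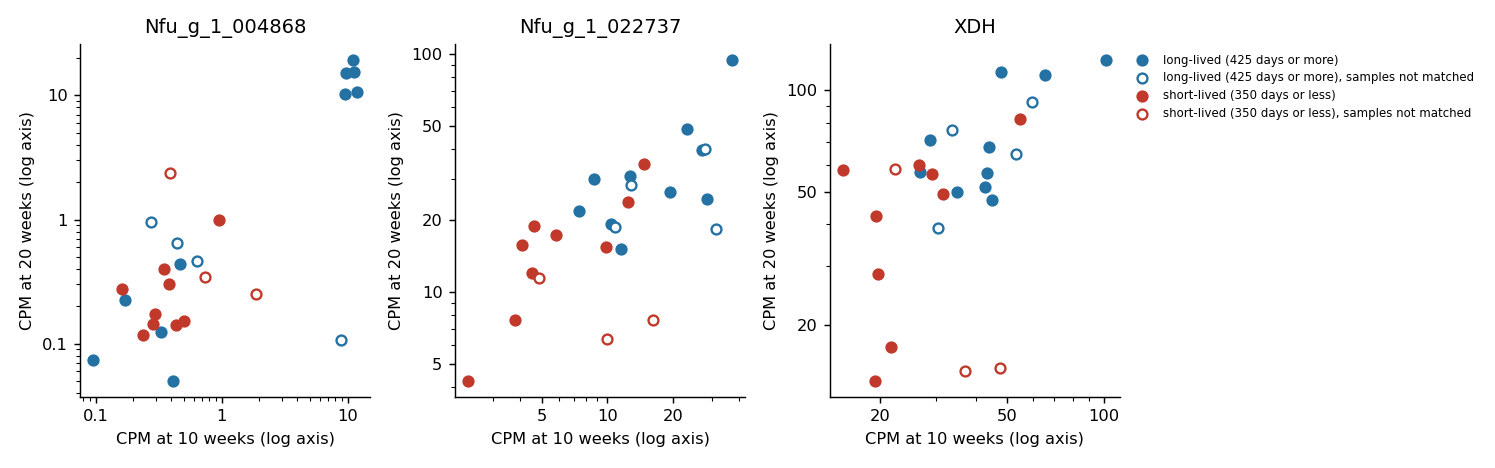
CPM at 20 weeks against CPM at 10 weeks (both log axes) in the 26 fish for Nfu_g_1_004868, Nfu_g_1_022737 and XDH, coloured by group, with open symbols for unmatched fish. For Nfu_g_1_004868, 5 long-lived fish are above 5 CPM at both ages and no short-lived fish is above it at either.

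The change from 10 to 20 weeks within each fish passed the test between the groups for no gene. Of 17547 genes tested with limma on the differences within fish, 0 (0%) passed, with a lowest adjusted p of 0.614, and 1414 (8.06%) had an unadjusted p under 0.05, of which 579 (3.3%) had a higher change in short-lived fish and 835 (4.76%) a lower one. EdgeR with the fish as a block called 0, with 1408 genes at an unadjusted p under 0.05. Since these differences rest on pairs, they are touched by the unmatched fish, without which 1196 genes (6.82%) had an unadjusted p under 0.05. The cell cycle list had a median change of -0.11 in short-lived and 0.23 in long-lived fish, and 28 of its 56 genes had an unadjusted p under 0.05 toward a lower change in short-lived fish, against 4.76% of all genes in that direction. That number was 11 without the unmatched fish (3.12% of all genes) and 36 without fish FC103, FC104 and FC105 (3.77%). The median difference over the list was -0.34, -0.27 and -0.39 in the 3 settings. With the term for fish FC85 to FC104 and FC105 to FC116 it was -0.32, with 23 genes at such a p (3.7% of all genes). Within fish FC85 to FC104 it was -0.34 with 55 of 56 genes below 0. Within the 8 grouped fish of FC105 to FC116 it was -0.17 with 50 below 0, and 0 had such a p (2.64% of all genes). In all 26 fish 7 of 13 sterol, 7 of 32 proteasome, 10 of 55 splicing and 6 of 41 chaperone genes also had such a p (4.76%). It was 4, 2, 2 and 3 without the unmatched fish (3.12%) and 7, 4, 5 and 5 with the term (3.7%). The proteasome median was -0.17, -0.13 and -0.14 in these settings. Toward a higher change stood 3 splicing, 1 chaperone and 6 of 26 stress-related genes in all 26 fish (3.3%). It was 2, 1 and 1 without the unmatched fish, beside 6.82% of all genes in either direction. With the term it was 3, 0 and 2 (2.67%), and 1 stress-related gene had a lower change at such a p. Of the stress-related genes 0 had a higher change at such a p within fish FC85 to FC104 (1.12%) and 4 within fish FC105 to FC116 (3.9%).

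Among single genes, TACC3, a spindle protein, had a mean log2 change of -0.35 in short-lived and 0.29 in long-lived fish, a difference of -0.64 ± 0.17 (SE; adjusted p 0.614, limma), and CKAP2, another spindle protein, had a difference of -0.45 ± 0.12 (SE). INSIG1, which retains the sterol sensor SCAP in the endoplasmic reticulum, had a difference of -0.73 ± 0.20 (SE). CORO1C, an actin-binding coronin, had a difference of -0.30 ± 0.07 (SE). On the other side stood MYO18A, an unconventional myosin, with 0.88 ± 0.24 (SE) at about 1 CPM, FAM13B with 0.27 ± 0.08 (SE), ANTXR2, the anthrax toxin receptor, with 0.66 ± 0.18 (SE) and FAM83H with 0.21 ± 0.06 (SE). All of these had an adjusted p of 0.614 in limma.

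When the age at death was used as a number over the 31 fish with a known age, in place of groups, edgeR called 6 genes at 20 weeks (0.0342%). C3, with the lowest p, changed by 0.67 ± 0.10 (SE) on the log2 scale per 100 days of shorter life (adjusted p 0.00238, edgeR), DDIT4 by 0.45 ± 0.09 (SE; adjusted p 0.0429) and XDH by -0.61 ± 0.11 (SE; adjusted p 0.0287). The other 3 were Nfu_g_1_002455, Nfu_g_1_018606 and Nfu_g_1_019436, which no source used here names. Without the 9 unmatched fish 0 genes were called, and C3 had 0.47 per 100 days with an adjusted edgeR p of 0.647. With single fish left out in turn, 0 to 26 genes were called: without fish FC108 it was 26, without fish FC104 it was 0, and without fish FC103 or fish FC105 only C3 remained, at adjusted edgeR p of 0.0174 and 0.0212. Because the short-lived deaths fall into 2 runs, the relation of level to age at death was also read within groups, as 48 correlations of the 24 named genes in the 14 long-lived fish (permutation test) and in the 7 short-lived fish that died from 294 days on (exact permutation test). Of these, 2 had an unadjusted permutation p under 0.05 and 0 passed adjustment (lowest adjusted permutation p 0.528).

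The named genes were also read in the other fish, which did not choose them, with a Cox model of the level at 20 weeks against time to death. Of the 12 higher genes, 5 had a hazard ratio above 1 in 48 fish of numbers FC1 to FC50 and 7 in 34 fish of numbers FC51 to FC84, against 50.1% and 50.6% of all genes. Of the 12 lower genes, 3 and 6 had a hazard ratio below 1, against 49.9% and 49.4% of all genes. Among the 337 genes higher at an unadjusted p under 0.05, 56.1% and 49.3% had a hazard ratio above 1, and among the 443 lower genes 53.7% and 58.7% had one below 1.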

How the data were processed

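Fin-clip libraries came from the TruSeq RNA v2 kit. Strand is not kept by it, and antisense genes that overlap cannot be separated. Per the submitters' processing notes the tools were featureCounts 1.5.0, TopHat2 2.1.0 and bcl2fastq 1.8.4. For the fin clips the study refers to earlier work, and their genome build and annotation are given by no source used here. Deposited by the authors were raw counts (whole numbers) of 26739 genes in each library.

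Age at death and clip age were taken from the labels, and separate fish are the replicates. Genes passing edgeR's filterByExpr over the 52 libraries were kept (17547). Levels were compared with edgeR 4.0.16 (R 4.3.3; TMM factors 0.883 to 1.18, quasi-likelihood F test, two-sided, Benjamini-Hochberg over all genes at 0.05), and changes within fish with limma 3.58.1 on log2 CPM differences (prior count 1, variance trend on mean log2 CPM). Here the fish is the block: the labels give each fish both clips, and 23 of 32 labelled pairs matched by correlation (above 0.81). Cox models used survival 3.8.3, with DESeq2 1.42.0 and limma-voom as alternatives. Procedures were tested on simulated data.

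Gene names came from supplementary tables of the study that are held in part, and 5383 of 26739 identifiers had a human gene name; 0 were found in the RefSeq gene table (NfurGRZ-RIMD1). Named genes were, at a mean of 5 CPM or more, the 12 named ones of lowest p per direction at 20 weeks and 2 of any kind, and 4 per direction at 10 weeks and for the change without that minimum. List members are named at an unadjusted p under 0.05. A few genes that these rules select are not reported here. Members and lists were chosen with earlier results of these data known. Genes singled out by their values are called so in the text. All differences are short-lived minus long-lived, and intervals cover 95%.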

Additional observations from a re-analysis of the deposited data

How the results depend on the processing

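The count of genes past the adjusted threshold at 20 weeks stayed 0 with DESeq2, limma-voom, other size factors, no filter, a term for animal number, the split at 400 days, the Cox model and without each fish in turn. It was 2 within fish FC101 to FC116 only (Nfu_g_1_003608 and Nfu_g_1_005613, with log2 fold changes of -6.19 and -6.16 there, against -1.35 and -2.11 in all 26 fish) and 6 with age at death as a covariate. At an unadjusted p under 0.05, 780 genes became 1192 with a split at 400 days, 1846 with age at death as a covariate, 1331 in the Cox model and 459 without the short-lived fish dead before 250 days, and 617 to 1116 without single fish. Within fish FC105 to FC116 the same 2 genes were called (-6.28 and -7.08). A term for fish FC85 to FC104 and FC105 to FC116 gave 1675 genes at an unadjusted p under 0.05, of which 640 were among the 780. At 10 weeks DESeq2 called 5 genes. Within fish FC105 to FC116, with 5 short-lived and 3 long-lived fish, edgeR called 3 (Nfu_g_1_003608, Nfu_g_1_005613 and Nfu_g_1_011818). Their log2 fold changes were -5.21, -5.62 and -4.31 there, against 0.246, -1.17 and -1.45 in all 26 fish. At that age Nfu_g_1_003608 lay above 5 CPM in 2 of 12 short-lived and 2 of 14 long-lived fish, and Nfu_g_1_005613 in 2 and 6. The 560 genes at an unadjusted p under 0.05 became 857 with no filter, 1186 within fish FC85 to FC100 and 336 within fish FC101 to FC116. They became 841 within fish FC85 to FC104, 880 with the term for fish FC85 to FC104 and FC105 to FC116, and 385 to 793 without single fish.

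For the change, the fit with no replicate block (fish not paired) gave 443 in place of 1414 genes at an unadjusted p under 0.05, edgeR with the fish as replicate block 1408, the fit without fish dead by week 24 gave 696, and fish FC85 to FC104 alone gave 541. Without single fish the count was 946 to 2209, with 2209 without fish FC87 and 2134 without fish FC109. All of these called 0 genes. The cause of these shifts was not tested.

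The sign turned for 4 genes at 20 weeks. In the Cox model without the unmatched fish ZBTB16 (Nfu_g_1_000436) had -0.0259 and FKBP5 -0.147. These are log hazard ratios per log2 unit of the level, not fold changes. HSPB7 had a log2 fold change of 0.0182 within fish FC85 to FC100 only. KLF9 had -0.434 within fish FC85 to FC100, -0.379 without fish FC103, FC104 and FC105 and -0.285 without the short-lived fish dead before 250 days. The log2 fold change of FKBP5 at 20 weeks was -0.0966 without fish FC103, FC104 and FC105 and -0.104 without the unmatched fish and fish FC105. For the change, MYOM2 had -0.0894 within fish FC105 to FC116. Alternatives without the 3 fish, without the unmatched fish together with FC105, without early deaths and by fish FC85 to FC104 and FC105 to FC116 were chosen after seeing the data, as were those on the covariate without single fish. No library had a TMM factor under 0.8, so leaving such libraries out was not run. Names are held for a fraction of genes, so that lists are incomplete, and the depth does not bound fold changes of the most variable genes.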
